A study of Mus musculus with 20 samples.

Results

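Imprinted genes are expressed from the allele inherited from only the mother or only the father, and 41 of them were followed here in *Zmym2*-/- embryos and cell lines. They were taken by symbol from a fixed list of genes with established imprinting in mouse. No measured value entered that rule, but the list was chosen with earlier results of these data known. They are 41 of the 25199 genes in the 3 tables of raw read counts. All 41 were present in the table of 22729 genes for embryos, and 40 were present among the 20159 genes for mouse embryonic stem cells (mESCs) and the 20142 genes for embryoid bodies (EBs), where *Airn* was not listed. Background knowledge assigns 15 of them to expression from the maternal allele, 24 to the paternal allele and 2 to a mixture of transcripts (*Gnas* and *Inpp5f*), and 7 are noncoding RNAs.

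ZMYM2 is a zinc finger protein of transcriptional corepressor complexes, and the study removed it by CRISPR-Cas9 with a frameshift in the first coding exon. Whole embryos of a C57BL/6 background were taken singly at E8.5 for RNA-seq, 6 *Zmym2*+/+ and 6 *Zmym2*-/-, each with 3 males (embryos 1 to 3) and 3 females (embryos 4 to 6). RNA-seq was also done on clonal lines derived from V6.5 mESCs, a C57BL/6 × 129/sv line, of which 2 were non-target controls and 2 were *Zmym2*-/-. Samples were taken as mESCs in serum and LIF (day 0) and as EBs, aggregates of differentiating mESCs, at day 3. Samples of the same number were read as the same line at both stages, which the labels do not state. Embryos whose names begin with H number 4 *Zmym2*+/+ and 2 *Zmym2*-/-, those beginning with J number 2 and 4, and all 3 male *Zmym2*-/- embryos carry the same number in their names. Another 3 name numbers hold both genotypes, 7 embryos in all, and what these numbers stand for is not given in the labels. Each line is a single clone, so what differs between clones cannot be told apart from genotype beyond the 2 lines of each kind. Reads were not split by parental allele, so the values are total RNA levels of each gene and imprinting itself was not measured.

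Libraries held 32016880 to 64057608 counts. Levels are CPM, the reads of a gene as a share of its library, after TMM scaling, a correction for library composition, and levels of different genes are compared only as the RPKM of the authors, which are corrected for gene length. A gene was called higher or lower in *Zmym2*-/- at a Benjamini-Hochberg adjusted p under 0.05 over all genes of the table, from the quasi-likelihood test of edgeR, and every adjusted p given here is of this kind, while SE is the standard error of a log2 fold change. *Zmym2* RNA was 66.8 and 70.8 CPM in control and 29.0 and 27.0 CPM in *Zmym2*-/- mESCs, and 92.8 and 93.1 against 32.4 and 30.9 CPM in EBs. The embryos overlapped, with 50.3 to 125 CPM for *Zmym2*+/+ against 25.4 to 67.1 CPM for *Zmym2*-/- (log2 fold change -0.91, adjusted p = 0.226).

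Most imprinted genes lie in domains in which a differentially methylated region, set in the germline, controls several genes in cis. In these domains a long noncoding RNA expressed from one parental allele often accompanies the silencing of its protein-coding neighbours on the same chromosome. The methylated copy is kept after fertilization by a KRAB zinc finger protein, ZFP57, which binds a methylated TGCCGC motif and recruits TRIM28, a repressor that in turn recruits the histone methyltransferase SETDB1. Many imprinted genes regulate growth of the embryo and placenta, with *Igf2* and *Mest* as paternally expressed promoters of growth and *H19*, *Igf2r*, *Grb10*, *Cdkn1c* and *Phlda2* as maternally expressed restraints on it.

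None of the 41 genes was called in *Zmym2*-/- embryos, whereas 17 of 40 were called in *Zmym2*-/- mESCs and 15 of 40 in *Zmym2*-/- EBs, and the difference between embryos and lines was not tested. In embryos 0.524% of all genes were called (0.51% higher and 0.0132% lower), and at an unadjusted p under 0.05 no member was higher and 2 were lower (*Ndn* and *Rtl1*), where 5.67% of all genes were higher and 6.38% lower. DESeq2 also called none. The median SE over the members was 0.27 in embryos, 0.14 in mESCs and 0.11 in EBs, so small changes were less detectable in embryos. The largest called log2 fold changes in mESCs were those of *H19* (2.57), *Usp29* (2.46) and *Magel2* (2.21). These lay well above the embryo SEs of the same genes (0.23, 0.26 and 0.36). However, *H19* had 0.253 and 0.330 CPM in control mESCs and 2610 to 7275 CPM in *Zmym2*+/+ embryos. *Usp29* and *Magel2* were also lower in both control mESC lines than in every *Zmym2*+/+ embryo. Folds from such unlike levels do not show what could be detected in embryos. In mESCs 12 members were higher and 5 were lower, 42.5% of the members against 19.2% of all genes. In EBs 9 were higher and 6 were lower, 37.5% against 7.39%. The median log2 fold change over the members was 0.07 in embryos, where all genes had a median of 0.02, 0.26 in mESCs against 0.01 and 0.05 in EBs against 0.01. Both medians for the lines were unchanged when *Peg13*, which had no or 1 count in the controls, was set against a floor of 3 counts.

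Members called higher in both stages of the lines were *H19*, *Sfmbt2*, *Ascl2*, *Cdkn1c*, *Usp29*, *Meg3*, *Rian* and *Mirg*, which are 66.7% of those higher in mESCs and 88.9% of those higher in EBs. Those lower in both stages were *Nnat*, *Zdbf2* and *Gnas*, 3 of the 5 and 3 of the 6 genes of the respective lists. The share of all genes called in both stages is not given here, so the overlap is not read as particular to the members. Both stages were read as samples of the same lines, so their lists are not independent. *Magel2* was higher in *Zmym2*-/- mESCs and lower in *Zmym2*-/- EBs. In mESCs alone *Peg3*, *Snrpn* and *Ndn* passed the test as higher and *Grb10* and *Slc38a4* as lower, and in EBs alone *Peg10* passed as higher and *Impact* and *Inpp5f* as lower. Whether the genotype difference itself changed between the stages was tested separately for each gene and is given with the stage comparison. In all, 20 members were called in at least 1 of the stages and 20 in neither.

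**Figure D1:**
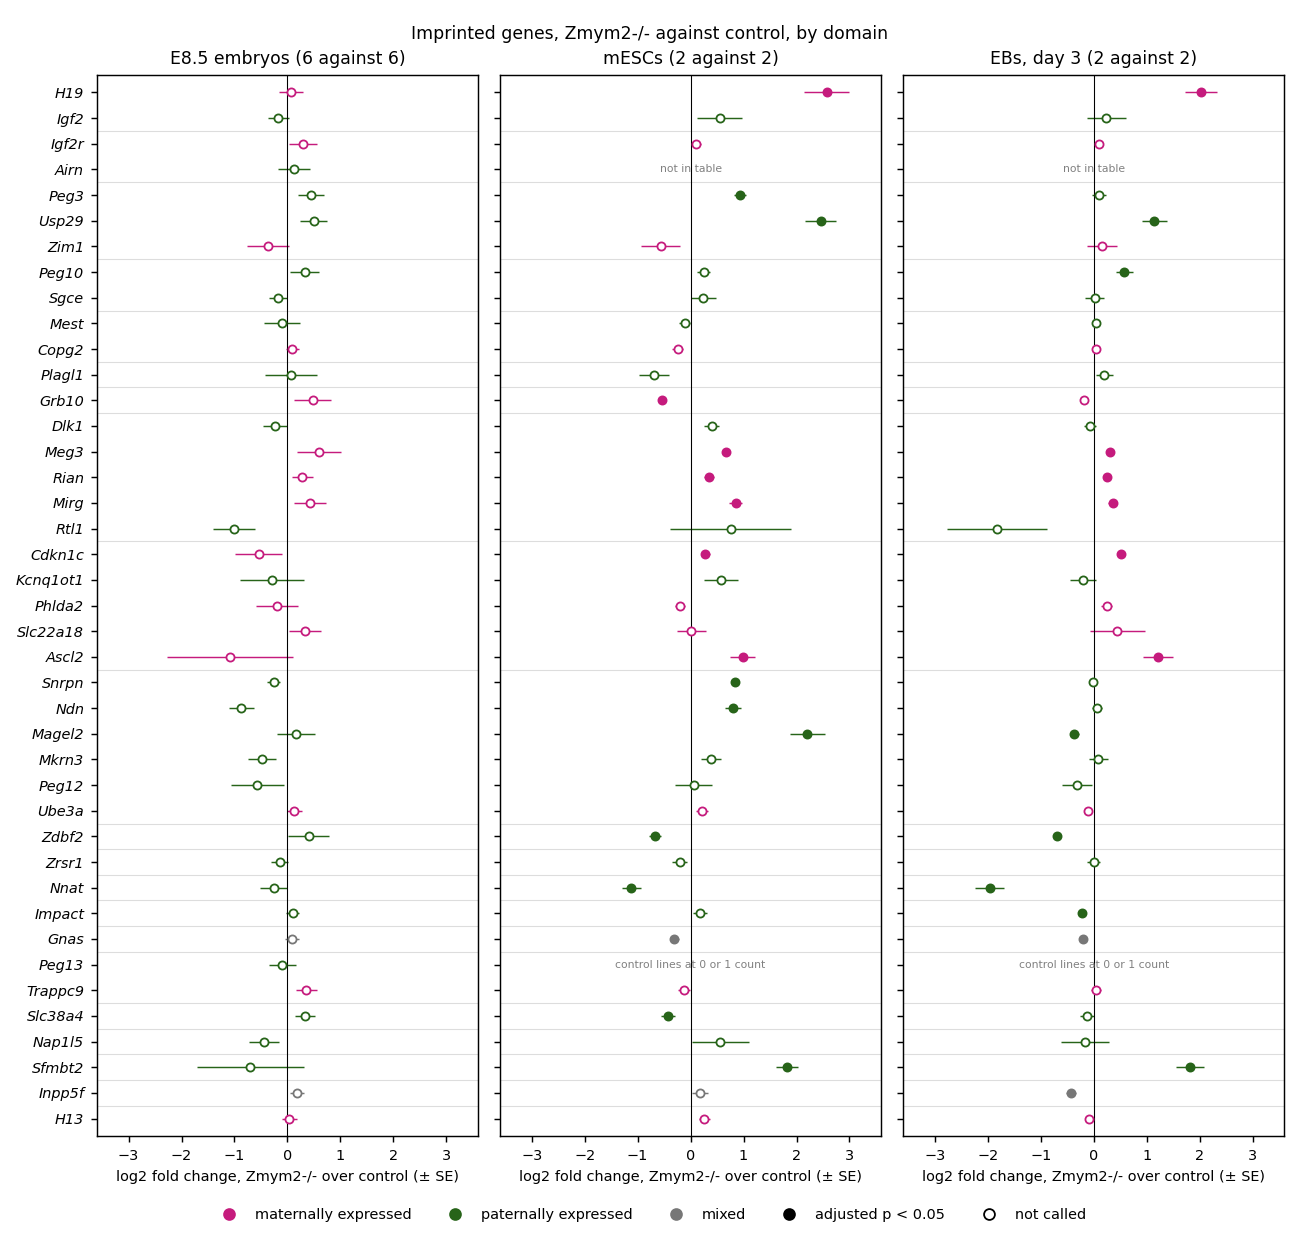
Log2 fold change of each imprinted gene, *Zmym2*-/- over control, in E8.5 embryos (left), mESCs (middle) and EBs at day 3 (right), with bars for the standard error and grey lines between domains. Filled points passed the adjusted p of 0.05 and colour gives the parental origin of expression: no point is filled for embryos, and 17 and 15 are filled for mESCs and EBs. *Peg13* is not drawn for the lines, where the controls had 0 or 1 count in all.

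By parental origin, the maternally expressed class of 15 had 6 higher genes and 1 lower gene in *Zmym2*-/- mESCs, and 6 higher and no lower genes in EBs. Of all genes 10.3% were higher and 8.94% lower in mESCs, and 4.62% and 2.77% in EBs. Of the 23 paternally expressed genes in these tables, 6 were higher and 3 lower in mESCs and 3 were higher and 4 lower in EBs. Of the noncoding RNAs, 4 of 6 were higher in both stages (*H19*, *Meg3*, *Rian* and *Mirg*) and none was lower. In embryos the median log2 fold change was 0.13 over the 15 maternally expressed genes and -0.16 over the 24 paternally expressed genes, with none called in either class. The 3 maternally expressed RNAs of the *Dlk1*-*Meg3* domain are neighbours on the same strand and share a promoter region, so they do not count as separate observations.

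In wild-type embryos *H19* had the highest level per length of the members, with a median of 1734 RPKM, followed by *Mest* (370 RPKM), *Phlda2* (297 RPKM), *Igf2* (279 RPKM) and *Cdkn1c* (270 RPKM). In control mESCs the order was led by *Phlda2* (124 RPKM), *Snrpn* (81.5 RPKM) and *Grb10* (58.8 RPKM), and *Igf2* and *H19* had medians of 0.098 and 0.12 RPKM. *Snrpn* led in control EBs with 268 RPKM. Under 1 RPKM were 5 of 41 genes in wild-type embryos, 14 in control mESCs and 15 in control EBs. *Igf2* and *H19* were thus near absent from the lines, where their ratios concern low levels.

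Embryos of both genotypes overlapped for every one of the 41 genes, whereas 1.18% of all genes separated the 6 *Zmym2*-/- from the 6 *Zmym2*+/+ embryos. *Igf2*, the fetal growth factor, had 1269, 1677 and 1903 CPM as the lowest, median and highest of the *Zmym2*+/+ embryos and 752, 1416 and 1966 CPM in *Zmym2*-/- (log2 fold change -0.18, SE 0.20, adjusted p = 0.753). Its neighbour *H19*, a noncoding RNA of the maternal allele that competes for the same enhancers, had 2610, 4068 and 7275 CPM against 3517, 4024 and 6680 CPM (log2 fold change 0.07, SE 0.23). Neither member of the pair moved beyond the spread between embryos, and *Zmym2*-/- embryo 6, whose tissue markers stand apart (given with *Mest*), had the lowest *Igf2* of the 12.

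*Igf2r*, the receptor that clears IGF2, had 131, 237 and 422 CPM in *Zmym2*+/+ and 214, 299 and 456 CPM in *Zmym2*-/- embryos. *Airn*, the antisense RNA that silences it on the paternal allele, had 3.22, 3.66 and 7.07 CPM against 2.52, 5.18 and 6.68 CPM. In the *Peg3* domain *Peg3*, a zinc finger gene, had 229, 425 and 682 CPM against 452, 556 and 718 CPM (log2 fold change 0.45, SE 0.24, adjusted p = 0.473). *Zmym2*-/- embryos lay within a narrower band that overlapped the upper values of *Zmym2*+/+. *Usp29*, the divergent deubiquitinase gene, had 2.56, 3.79 and 5.10 CPM against 3.12, 5.28 and 7.15 CPM, and *Zim1*, a maternally expressed zinc finger gene beside them, had 8.94, 16.1 and 22.8 CPM against 4.26, 12.2 and 20.5 CPM.

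*Mest*, a paternally expressed gene of mesoderm, had 749, 1489 and 1961 CPM in *Zmym2*+/+ and 492, 1400.3 and 2153 CPM in *Zmym2*-/- embryos. The 3 male *Zmym2*-/- embryos had 1912 to 2153 CPM and the 3 females 492 to 888 CPM, but sex goes with the name number in this genotype and the 2 cannot be told apart. *Plagl1*, a zinc finger transcription factor, showed the same division, with 39.96 to 74.7 CPM in the males and 6.64 to 22.3 CPM in the females, against 14.2, 36.9 and 51.4 CPM in *Zmym2*+/+. *Peg12*, of the FRAT family, had 15.8 to 28.3 CPM in these males and 2.85 to 8.02 CPM in these females, against 7.10, 22.1 and 31.6 CPM in *Zmym2*+/+. Tissue markers divided the same embryos. Summed cardiac markers were 507 to 1016 CPM in the males and 27.6 to 336 CPM in the females, summed yolk sac endoderm markers 1852 to 2831 CPM against 4067 to 7213 CPM, and summed pluripotency markers 23.5 to 68.7 CPM against 98.4 to 445 CPM. *Zmym2*-/- embryo 6 had the lowest cardiac and the highest yolk sac endoderm and pluripotency sums of the 12 embryos. The part of these tissues in the levels of *Mest*, *Plagl1*, *Peg12* and *Nnat* was not tested, and with sex as a covariate no member was called either. *Copg2*, a coatomer subunit convergent with *Mest*, had 52.1, 69.5 and 81.1 CPM against 57.5, 76.6 and 78.3 CPM. *Grb10*, an adaptor that restrains growth factor signalling, had 182, 565 and 881 CPM against 413, 727 and 1288 CPM.

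In the *Dlk1*-*Meg3* domain, *Dlk1*, a paternally expressed ligand related to those of Notch, had 154, 179.7 and 318 CPM in *Zmym2*+/+ and 114, 172 and 245 CPM in *Zmym2*-/- embryos. *Meg3*, the maternally expressed noncoding RNA, had 52.3, 68.9 and 191 CPM against 40.5, 132 and 232 CPM (log2 fold change 0.59, SE 0.41, adjusted p = 0.581). *Rian*, a host of small nucleolar RNAs, had 243, 439.6 and 546 CPM against 347, 547 and 646 CPM, and *Mirg*, a host of miRNAs, 7.49, 13 and 23.9 CPM against 9.24, 18.0 and 32.1 CPM. All 3 RNAs had higher medians in *Zmym2*-/- embryos without passing the test. In *Zmym2*+/+ embryos *Meg3* had 191 and 144 CPM under J names (3 and 6) and 52.3 to 76.4 CPM under H names. *Mirg* had 23.9 and 17.6 CPM against 7.49 to 13.4 CPM there. In *Zmym2*-/- embryos *Meg3* had 117 to 221 CPM under J names and 232 and 40.5 CPM under H names. J names cover 2 *Zmym2*+/+ and 4 *Zmym2*-/- embryos, so the medians compare unlike mixes of the names. Over 23 alternatives the log2 fold change of *Meg3* ran from -0.15 to 1.13. *Rtl1*, a paternally expressed gene derived from a retrotransposon, had 0.776, 1.26 and 1.44 CPM against 0.147, 0.637 and 1.13 CPM (log2 fold change -1.01, SE 0.40, unadjusted p = 0.0234, adjusted p = 0.374). Exons of 6 genes on the other strand overlap its own. The study describes a stranded library preparation for embryos, but the strand setting of the counting is not given in the sources used here. Whether reads of the other strand were counted for *Rtl1* is therefore not known.

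In the *Kcnq1ot1* domain, *Cdkn1c*, a maternally expressed inhibitor of cyclin-dependent kinases, had 177, 539.6 and 1059 CPM in *Zmym2*+/+ and 160.4, 323 and 912 CPM in *Zmym2*-/- embryos. *Kcnq1ot1*, the paternally expressed antisense RNA that silences the domain, had 1.33, 4.54 and 23.1 CPM against 2.50, 6.20 and 12.8 CPM. *Phlda2*, a restraint on placental growth, had 74.6, 240.4 and 393 CPM against 89.2, 246 and 319 CPM, and the transporter gene *Slc22a18* had 3.12, 5.02 and 7.37 CPM against 3.78, 6.27 and 10.8 CPM. *Ascl2*, a transcription factor of trophoblast, had 35.2 and 35.7 CPM in *Zmym2*+/+ embryos 1 and 2, 7.73 CPM in embryo 4 and at most 2.30 CPM in the other 3. In *Zmym2*-/- it had 32.7 CPM in embryo 4 and at most 2.63 CPM in the other 5. *Sfmbt2*, a polycomb group gene of trophoblast, was high in the same embryos, with 152, 250.2 and 62.6 CPM in *Zmym2*+/+ embryos 1, 2 and 4 and 239 CPM in *Zmym2*-/- embryo 4, against 6.96 to 17.6 CPM and 7.94 to 24.4 CPM in the rest of each genotype.

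Markers of trophoblast moved with these embryos. The summed level of the 8 of 9 trophoblast markers in the table was 789, 1423 and 355 CPM in *Zmym2*+/+ embryos 1, 2 and 4 and 720 CPM in *Zmym2*-/- embryo 4, and 58.5 to 206 CPM and 97.9 to 232 CPM in the others. More cells of a type and more RNA per cell cannot be told apart in whole embryos. *Cdkn1c* was also highest in embryos 1 and 2 of *Zmym2*+/+ (901 and 1059 CPM) and embryo 4 of *Zmym2*-/- (912 CPM). Without these 3 embryos, chosen after their values were seen, no member was called.

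**Figure D2:**
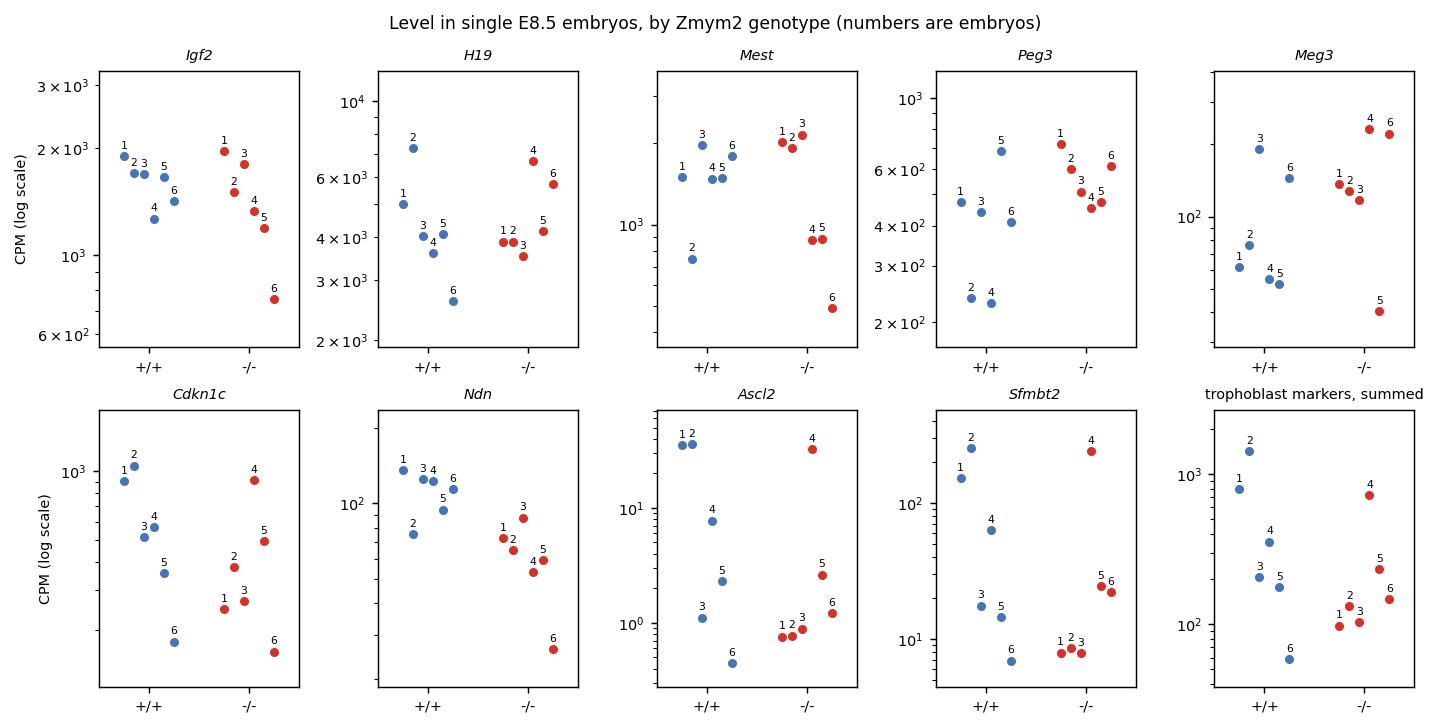
Level in each single E8.5 embryo (CPM, log axis) of 9 imprinted genes and of the summed trophoblast markers, for *Zmym2*+/+ (blue) and *Zmym2*-/- (red), with the number of each embryo above its point. The genotypes overlap in every panel, *Ascl2* and *Sfmbt2* are highest in the embryos with the highest trophoblast sums (1, 2 and 4 of *Zmym2*+/+ and 4 of *Zmym2*-/-), and *Zmym2*-/- embryo 6, which has the lowest cardiac marker sum (27.6 CPM), is lowest in *Igf2*, *Mest*, *Cdkn1c* and *Ndn*.

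In the *Snrpn*-*Ube3a* domain, *Ndn*, which encodes the MAGE family protein necdin, had 75.2, 118 and 136 CPM in *Zmym2*+/+ and 26.2, 62.2 and 87.8 CPM in *Zmym2*-/- embryos. Of the 41 genes it had the smallest p in embryos, with a log2 fold change of -0.87 (SE 0.24, unadjusted p = 0.00256, adjusted p = 0.216), and *Zmym2*+/+ embryo 2 alone lay within the *Zmym2*-/- range. Among embryos that share a name number, *Ndn* had 136 and 123 CPM in *Zmym2*+/+ embryos 1 and 4 against 53.4 CPM in *Zmym2*-/- embryo 4, 75.2 CPM in *Zmym2*+/+ embryo 2 against 59.3 CPM in *Zmym2*-/- embryo 5, and 125 CPM in *Zmym2*+/+ embryo 3 against 26.2 CPM in *Zmym2*-/- embryo 6. *Zmym2*-/- was lower under each of the 3 numbers, but these are the values that gave the p and add no separate evidence. The 3 *Zmym2*-/- embryos here are the females. Their summed neural markers were 70.8, 49.3 and 54.4 CPM, against 132 to 194 CPM in the males of this genotype. In those males *Ndn* was 65.1 to 87.8 CPM. *Zmym2*+/+ embryos had neural sums of 60.5 to 182 CPM. The part of tissue in the level of *Ndn* was not tested. *Snrpn*, a spliceosomal protein gene, had 107, 158 and 175 CPM against 105, 126 and 144 CPM (log2 fold change -0.26, SE 0.13, adjusted p = 0.430). *Magel2*, of the same family as *Ndn*, had 3.19, 6.10 and 10.2 CPM against 3.77, 6.21 and 14.3 CPM, *Mkrn3*, a makorin gene, 5.04, 9.65 and 11.9 CPM against 3.52, 7.12 and 8.72 CPM, and *Ube3a*, a ubiquitin ligase gene imprinted in neurons, 93.9, 116 and 139 CPM against 92.5, 128 and 156 CPM. *Mkrn3* had a log2 fold change of -0.48 (SE 0.27), *Peg12* of -0.57 (SE 0.50) and *Magel2* of 0.15 (SE 0.36). Whether the paternally expressed genes of the domain moved together in embryos was not tested.

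Among the remaining loci, *Zdbf2*, a paternally expressed zinc finger gene, had 9.46, 26.4 and 46.9 CPM in *Zmym2*+/+ and 17.8, 32.2 and 65.8 CPM in *Zmym2*-/- embryos. *Nnat*, which encodes the membrane proteolipid neuronatin, had 149.7, 206 and 234 CPM against 92.7, 147 and 262 CPM, with the 3 female *Zmym2*-/- embryos at 92.7 to 115 CPM. *Gnas*, the locus of a G protein alpha subunit, had 560.0, 693 and 917 CPM against 596, 779 and 878 CPM. *Slc38a4*, an amino acid transporter gene, had 133, 200.5 and 278 CPM against 212, 239 and 368 CPM (adjusted p = 0.492). *Peg10*, a placental gene derived from a retrotransposon, had 536, 880.3 and 1462 CPM against 759, 1081 and 1866 CPM. The other 8 genes (*Sgce*, *Zrsr1*, *Impact*, *Peg13*, *Trappc9*, *Nap1l5*, *Inpp5f* and *H13*) had log2 fold changes between -0.44 (*Nap1l5*) and 0.35 (*Trappc9*).

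In the lines, *H19* (chr7:142575529-142578143, mm10) had 0.253 and 0.330 CPM in control and 2.12 and 1.33 CPM in *Zmym2*-/- mESCs (log2 fold change 2.57, SE 0.43, adjusted p = 0.000976). In EBs it had 0.637 and 0.626 CPM against 2.99 and 2.16 CPM (log2 fold change 2.03, SE 0.30, adjusted p = 0.00153). Both *Zmym2*-/- lines lay above both controls at each stage, at levels far under the 2610 CPM of the lowest embryo. *Igf2* had 0.547 and 0.577 CPM against 0.989 and 0.649 CPM in mESCs (adjusted p = 0.424) and 1.03 and 0.871 CPM against 1.43 and 0.750 CPM in EBs (adjusted p = 0.791). The *H19* RNA is the precursor of a miRNA whose strands are shown to identify the product of this transcript, from the RefSeq annotation of GRCm38, with the seed (bases 2 to 8), the part that pairs with targets, in capitals. The miRNAs themselves were not measured by mRNA libraries.
mmu-miR-675-5p: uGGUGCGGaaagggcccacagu
mmu-miR-675-3p: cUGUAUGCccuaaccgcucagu

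*Peg3* (chr7:6703892-6730431) and *Usp29* (chr7:6730578-6967219) are paternally expressed and start from opposite strands of a shared promoter, and both were higher in *Zmym2*-/- mESCs. *Peg3* had 23.5 and 21.2 CPM in control and 43.9 and 41.5 CPM in *Zmym2*-/- mESCs (log2 fold change 0.93, SE 0.11, adjusted p = 9.51e-05). *Usp29* had 0.736 and 0.604 CPM against 3.70 and 3.74 CPM (log2 fold change 2.46, SE 0.30, adjusted p = 9.28e-05). In EBs *Usp29* was still higher, with 1.61 and 1.82 CPM against 4.44 and 3.11 CPM (log2 fold change 1.15, adjusted p = 0.0131), though not without *Zmym2*-/- line 1 (adjusted p = 0.103). For *Peg3* the EBs overlapped, with 71.2 and 86.1 CPM against 97.7 and 70.5 CPM (adjusted p = 0.732), but without *Zmym2*-/- line 2 the adjusted p was 0.00201 and the log2 fold change 0.31. *Zim1* had 1.18 and 1.32 CPM against 0.669 and 1.02 CPM in mESCs and 1.27 and 2.07 CPM against 2.02 and 1.70 CPM in EBs. The 146 bases between the annotated starts of *Peg3* and *Usp29*, chr7:6730432-6730577 of GRCm38 read on the plus strand, are shown because both genes rose in *Zmym2*-/- mESCs, and they hold 5 CpG dinucleotides and no TGCCGC on either strand.
Peg3-Usp29 shared promoter: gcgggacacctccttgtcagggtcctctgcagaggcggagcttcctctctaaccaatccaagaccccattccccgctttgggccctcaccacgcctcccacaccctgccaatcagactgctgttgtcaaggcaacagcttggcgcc

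In the *Dlk1*-*Meg3* domain the 3 maternally expressed RNAs were higher in both stages of the *Zmym2*-/- lines. *Meg3* (chr12:109541001-109571726) had 137 and 123 CPM in control and 208 and 206 CPM in *Zmym2*-/- mESCs (log2 fold change 0.67, SE 0.08, adjusted p = 0.000108), and 225 and 228 CPM against 264 and 298 CPM in EBs (log2 fold change 0.31, SE 0.06, adjusted p = 0.00769). *Mirg* had 16.3 and 15.0 CPM against 30.1 and 26.4 CPM in mESCs (log2 fold change 0.85, adjusted p = 0.000487) and 29.5 and 33.5 CPM against 38.7 and 42.2 CPM in EBs (log2 fold change 0.36, adjusted p = 0.0261, and 0.148 without control line 1). *Rian* had 208 and 223 CPM against 300.3 and 247 CPM in mESCs (log2 fold change 0.34, adjusted p = 0.0217) and 264 and 270.1 CPM against 309 and 329 CPM in EBs (log2 fold change 0.26, adjusted p = 0.0084). The mESC call of *Rian* was lost without control line 1 (adjusted p = 0.0699) and without *Zmym2*-/- line 1 (adjusted p = 0.156).

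The paternally expressed protein-coding genes of the same domain were not called. *Dlk1* had 15.3 and 12.5 CPM against 18.4 and 18.4 CPM in mESCs (log2 fold change 0.40, adjusted p = 0.0674) and 13.4 and 12.6 CPM against 11.9 and 12.9 CPM in EBs. *Rtl1* stayed under 0.2 CPM in all 8 line libraries. The *Mirg* gene body holds 26 mature miRNAs of RefSeq with 25 different seeds, against 6 in *Rian* and 3 in *Meg3*, and 2 well-known members of the *Mirg* group are shown with the seed in capitals to identify what this transcript carries.
mmu-miR-410-3p: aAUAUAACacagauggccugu
mmu-miR-154-3p: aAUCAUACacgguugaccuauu
The 250 bases before the start of *Meg3*, chr12:109540746-109540995 of GRCm38 on the plus strand, are shown because the 3 RNAs rose together, and they hold 1 copy of TGCCGC, in capitals as its reverse complement GCGGCA.
Meg3 upstream: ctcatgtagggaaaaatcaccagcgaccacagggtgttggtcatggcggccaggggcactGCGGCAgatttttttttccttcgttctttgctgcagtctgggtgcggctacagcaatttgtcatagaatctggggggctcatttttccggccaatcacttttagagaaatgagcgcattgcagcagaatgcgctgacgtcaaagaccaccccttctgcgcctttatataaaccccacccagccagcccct

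In the *Kcnq1ot1* domain the maternally expressed *Cdkn1c* (chr7:143458339-143461050) and *Ascl2* were higher in both stages. *Cdkn1c* had 75.0 and 75.7 CPM in control and 92.9 and 89.2 CPM in *Zmym2*-/- mESCs (log2 fold change 0.27, SE 0.08, adjusted p = 0.0383), and 62.1 and 60.2 CPM against 93.2 and 81.2 CPM in EBs (log2 fold change 0.51, SE 0.07, adjusted p = 0.00136). In mESCs the call of *Cdkn1c* ended without control line 1 (adjusted p = 0.147), control line 2 (0.146) or *Zmym2*-/- line 1 (0.104), whereas its call in EBs was kept in all 9 alternatives. *Ascl2* had 3.70 and 2.50 CPM against 5.94 and 6.46 CPM in mESCs (log2 fold change 0.99, adjusted p = 0.0102) and 1.15 and 0.817 CPM against 2.53 and 1.99 CPM in EBs (log2 fold change 1.21, adjusted p = 0.0250). These calls did not hold without control line 2 (adjusted p = 0.118 in mESCs and 0.126 in EBs), and that in EBs was also lost without *Zmym2*-/- line 1 (0.137).

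The silencing RNA of the domain, *Kcnq1ot1*, was not called, with 1.54 and 1.21 CPM against 2.47 and 1.61 CPM in mESCs (adjusted p = 0.256) and 2.03 and 2.23 CPM against 1.85 and 1.85 CPM in EBs (adjusted p = 0.707). *Phlda2* had 135 and 142 CPM against 129 and 111 CPM in mESCs and 48.8 and 40.1 CPM against 57.4 and 47.8 CPM in EBs. *Slc22a18* had 3.24 and 4.5 CPM against 3.00 and 4.79 CPM in mESCs and 0.577 and 0.408 CPM against 0.373 and 1.01 CPM in EBs. Only 2 of the 4 maternally expressed genes of the domain were therefore called in either stage.

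*Sfmbt2* (chr2:10370510-10595253) had 4.23 and 3.32 CPM in control and 15.5 and 11.3 CPM in *Zmym2*-/- mESCs (log2 fold change 1.82, SE 0.20, adjusted p = 4.81e-05), and 1.49 and 1.01 CPM against 5.15 and 3.55 CPM in EBs (log2 fold change 1.82, SE 0.27, adjusted p = 0.00161). Both *Zmym2*-/- lines were above both controls at each stage, and no alternative removed either call. Of the trophoblast markers, 3 of 9 were in the tables of the lines (*Gcm1*, *Syna* and *Hand1*), and their sum was 0.412 and 0.779 CPM in control and 0.989 to 2.01 CPM in *Zmym2*-/- mESCs, and 1.24 to 1.74 CPM against 2.22 to 2.48 CPM in EBs. None of the 3 was called at either stage, and the other markers of the list are not analysed here in the lines.

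**Figure D3:**
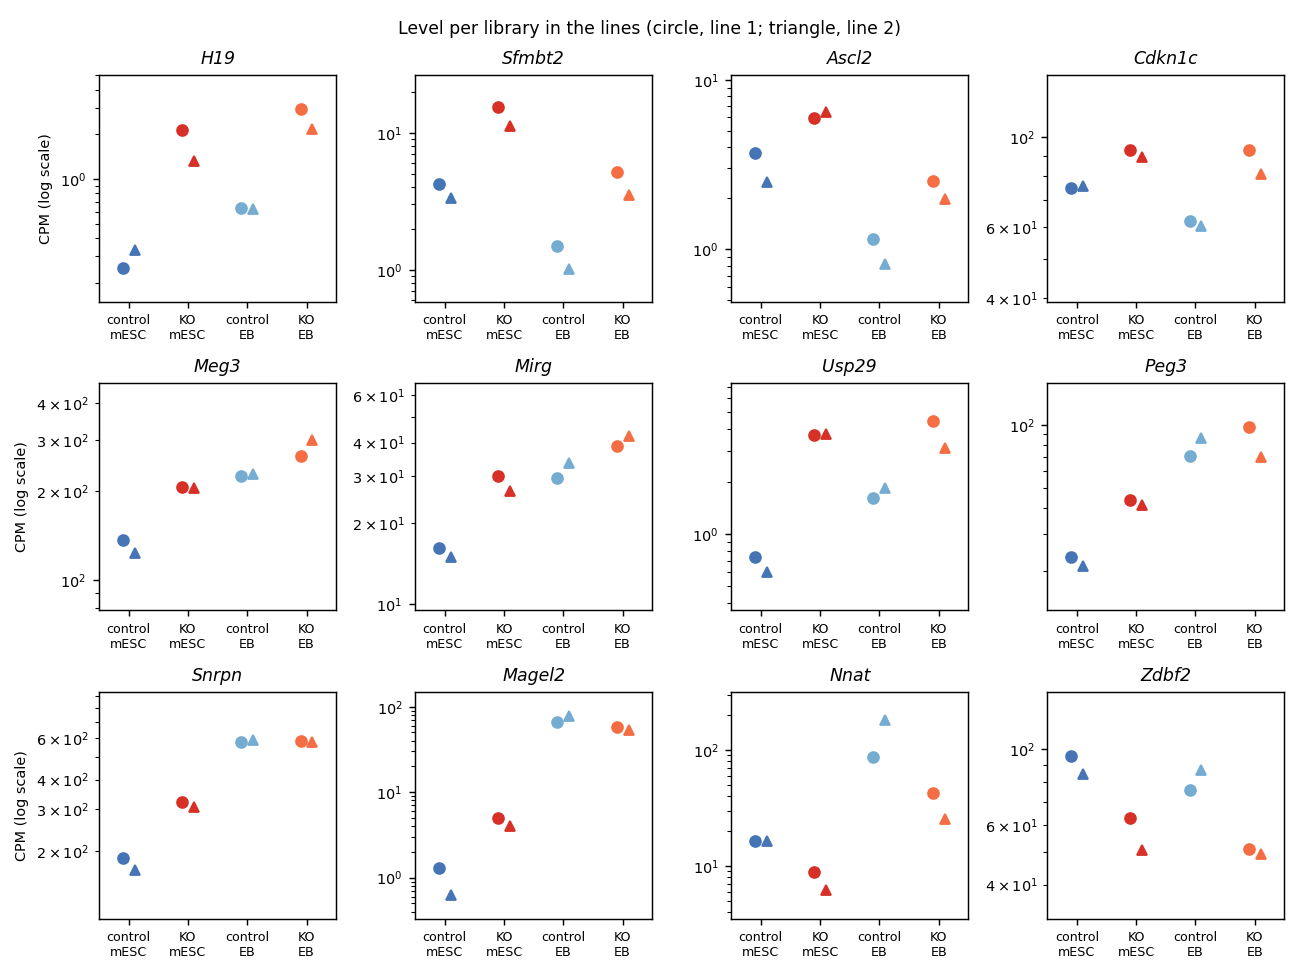
Level in each line library (CPM, log axis) of 12 imprinted genes, in control and *Zmym2*-/- (KO) mESCs and EBs, with circles for line 1 and triangles for line 2 of each genotype. *H19*, *Sfmbt2*, *Ascl2*, *Cdkn1c*, *Meg3*, *Mirg* and *Usp29* are higher in both *Zmym2*-/- lines at both stages, *Nnat* and *Zdbf2* are lower at both, and *Peg3*, *Snrpn* and *Magel2* lie further apart in mESCs than in EBs.

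The paternally expressed *Snrpn* (chr7:59982495-60140219), *Ndn* and *Magel2* (chr7:62377010-62381640) were higher in *Zmym2*-/- mESCs. *Snrpn* had 186 and 165 CPM in control and 323 and 305 CPM in *Zmym2*-/- mESCs (log2 fold change 0.84, SE 0.08, adjusted p = 1.91e-05). *Ndn* had 11 and 9.23 CPM against 18.4 and 16.8 CPM (log2 fold change 0.79, SE 0.15, adjusted p = 0.00234). *Magel2* had 1.28 and 0.632 CPM against 5.03 and 3.99 CPM (log2 fold change 2.21, SE 0.33, adjusted p = 0.000429). In EBs neither of the first pair differed, with 574 and 588 CPM against 579 and 573 CPM for *Snrpn* (log2 fold change -0.01, SE 0.04) and 41.7 and 37.3 CPM against 45.5 and 36.7 CPM for *Ndn* (log2 fold change 0.06, SE 0.10). *Magel2* was lower in *Zmym2*-/- EBs, with 65.7 and 78.8 CPM against 58.5 and 53.3 CPM (log2 fold change -0.37, SE 0.09, adjusted p = 0.0231, and 0.163 without control line 2).

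The other genes of the domain were not called in either stage. *Mkrn3* had 5.47 and 5.36 CPM against 6.61 and 7.51 CPM in mESCs and 5.01 and 4.85 CPM against 5.68 and 4.76 CPM in EBs. *Ube3a* had 43.8 and 41.4 CPM against 52.8 and 46.2 CPM in mESCs and 49.9 and 57.6 CPM against 50.5 and 48.9 CPM in EBs. *Peg12* lay between 0.934 and 1.74 CPM in all 8 libraries. *Snrpn* shares exons with *Snurf* on the same strand, so its reads may be split between the annotated genes. The 250 bases before the start of *Magel2*, chr7:62376729-62376978 of GRCm38 on the plus strand, are shown for the gene with the largest change between stages, and they hold 7 CpG dinucleotides and no TGCCGC.
Magel2 upstream: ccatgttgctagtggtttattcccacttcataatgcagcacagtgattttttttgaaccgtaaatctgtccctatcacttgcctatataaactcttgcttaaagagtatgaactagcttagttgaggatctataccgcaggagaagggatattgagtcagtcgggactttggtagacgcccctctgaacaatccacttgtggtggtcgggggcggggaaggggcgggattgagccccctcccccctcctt

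Lower in both stages of the *Zmym2*-/- lines were *Zdbf2* and *Nnat*, which are paternally expressed, and *Gnas*. *Zdbf2* (chr1:63273265-63314576) had 95.5 and 84.9 CPM in control and 62.9 and 50.7 CPM in *Zmym2*-/- mESCs (log2 fold change -0.67, SE 0.11, adjusted p = 0.00101), and 75.9 and 87.0 CPM against 50.9 and 49.2 CPM in EBs (log2 fold change -0.70, SE 0.08, adjusted p = 0.000137). *Nnat* (chr2:157560078-157562522) had 16.5 and 16.6 CPM against 8.93 and 6.24 CPM in mESCs (log2 fold change -1.12, SE 0.18, adjusted p = 0.000646). In EBs *Nnat* had 87.9 and 179.8 CPM against 42.5 and 25.5 CPM (log2 fold change -1.97, SE 0.27, adjusted p = 0.00091), and the controls differed from each other by a log2 ratio of 1.03. *Zdbf2* and *Nnat* were called in all 9 alternatives of each stage. *Gnas* had 326 and 355 CPM against 266 and 284 CPM in mESCs (log2 fold change -0.31, adjusted p = 0.0155) and 641 and 579 CPM against 522 and 532 CPM in EBs (log2 fold change -0.21, adjusted p = 0.0288). This did not hold in mESCs without control line 2 (adjusted p = 0.140) or *Zmym2*-/- line 1 (0.0701), and in EBs without control line 1 (0.204) or *Zmym2*-/- line 1 (0.0873).

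*Zdbf2* is known for a long transcript that starts upstream of the gene and is made from the paternal allele in early embryos and mESCs. The RefSeq models of *Zdbf2* have such an upstream start, and the 205 bases before it that no exon covers, chr1:63200108-63200312 of GRCm38 on the plus strand, are shown because they hold 3 copies of the TGCCGC motif, in capitals on either strand.
Zdbf2 upstream: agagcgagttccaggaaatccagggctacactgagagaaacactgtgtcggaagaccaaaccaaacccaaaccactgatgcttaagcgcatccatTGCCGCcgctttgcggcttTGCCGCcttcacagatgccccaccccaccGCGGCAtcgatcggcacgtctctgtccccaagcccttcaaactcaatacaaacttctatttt
A separate noncoding gene annotated at that start, *Platr12* (chr1:63200313-63207967), which is not of the 41 and was chosen after its values were seen, had 2.53 and 2.58 CPM in control and 1.40 and 2.38 CPM in *Zmym2*-/- mESCs (adjusted p = 0.364) and 1.88 and 1.5 CPM against 1.04 and 1.04 CPM in EBs (adjusted p = 0.196). Embryos had the other direction at levels near the floor, with 0 RPKM in every *Zmym2*+/+ embryo and a median of 0.023 RPKM (highest 0.069 RPKM) in *Zmym2*-/-. For *Zmym2*-/- embryos the study reported that the long isoform of *Zdbf2*, a transient imprint, was hypomethylated and transcribed. At the stably imprinted loci it examined by bisulfite sequencing, it found no significant hypomethylation in these embryos. It contrasted this with the loss of imprints published for stem cells without ZMYM2. Of the 33 members with a RefSeq promoter window, 7 held TGCCGC in the 250 bases before a start (21.2%), and of 27025 gene symbols 9.84% did. Of the members with a window, 2 of 16 called in the lines held it (*Meg3* and *Zdbf2*) and 5 of 17 not called (*Zim1*, *Mest*, *Copg2*, *Plagl1* and *Nap1l5*). A match in these letters does not say that ZFP57 bound there.

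The remaining calls were of single loci. *Grb10* had 509 and 559 CPM in control and 367 and 367 CPM in *Zmym2*-/- mESCs (log2 fold change -0.54, SE 0.08, adjusted p = 0.000269), and 269 and 290.2 CPM against 242 and 250.1 CPM in EBs (log2 fold change -0.18, adjusted p = 0.0572). The EB value passed the threshold without control line 1 (adjusted p = 0.0159) or *Zmym2*-/- line 2 (0.0208). *Slc38a4* had 104 and 127 CPM against 97.3 and 74.3 CPM in mESCs (log2 fold change -0.42, adjusted p = 0.0319), a call lost without control line 2 (log2 fold change -0.27, adjusted p = 0.175) or *Zmym2*-/- line 2 (-0.24 and 0.176). In EBs it had 100.1 and 122 CPM against 118 and 85.3 CPM.

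*Peg10* was higher in *Zmym2*-/- EBs, with 35.3 and 48.3 CPM against 73.0 and 51.7 CPM (log2 fold change 0.58, adjusted p = 0.0390), but the log2 fold change without *Zmym2*-/- line 1 was 0.30 (adjusted p = 0.226) and DESeq2 gave an adjusted p of 0.441. In mESCs it had 93.3 and 87.6 CPM against 125 and 90.4 CPM. *Impact*, a regulator of the kinase GCN2, had 138 and 137 CPM against 120.2 and 114 CPM in EBs (log2 fold change -0.23, adjusted p = 0.0264) and 76.3 and 66.9 CPM against 93.8 and 68.4 CPM in mESCs. The EB call of *Impact* was lost without control line 1 (adjusted p = 0.0633), control line 2 (0.0536) or *Zmym2*-/- line 2 (0.0773). *Inpp5f*, a phosphoinositide phosphatase gene with an imprinted variant, had 34.0 and 38.7 CPM against 27.4 and 26.6 CPM in EBs (log2 fold change -0.43, adjusted p = 0.0105, and 0.0796 without control line 2) and 12.1 and 15.0 CPM against 14.5 and 16.3 CPM in mESCs.

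Of the genes not called in either stage, *Plagl1* had 2.84 and 3.52 CPM in control and 2.36 and 1.55 CPM in *Zmym2*-/- mESCs (log2 fold change -0.70, adjusted p = 0.110). Without *Zmym2*-/- line 1 its log2 fold change was -1.03 (adjusted p = 0.0261), and in EBs it had 6.07 and 5.80 CPM against 7.5 and 6.09 CPM. *Mest* had 105 and 119 CPM against 115 and 92.9 CPM in mESCs and 106 and 103 CPM against 111 and 102 CPM in EBs. *Igf2r* had 85.2 and 76.0 CPM against 86.6 and 86.7 CPM in mESCs and 96.9 and 94.1 CPM against 100.3 and 103 CPM in EBs. Log2 fold changes of *Mest* and *Igf2r* lay between -0.11 and 0.10 in both stages. *Copg2* had 63.2 and 70.0 CPM against 57.3 and 55.0 CPM in mESCs and 47.8 and 47.6 CPM against 49.5 and 49.4 CPM in EBs.

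*H13*, a signal peptide peptidase gene, had 45.8 and 45.3 CPM against 55.8 and 53.4 CPM in mESCs (adjusted p = 0.0770) and 85.8 and 86.5 CPM against 80.5 and 81.2 CPM in EBs. *Trappc9*, a subunit of a trafficking complex, had 41.5 and 37.8 CPM against 33.8 and 38.6 CPM in mESCs and 23.7 and 23.5 CPM against 22.6 and 26.1 CPM in EBs. Neither gene passed the test in either stage. *Zrsr1*, a splicing factor gene, had 16.8 and 17.1 CPM against 15.9 and 13.4 CPM in mESCs and 11.1 and 11.1 CPM against 11.9 and 10.3 CPM in EBs. *Sgce* (3.26 to 5.02 CPM) and *Nap1l5* (0.295 to 1.44 CPM) also varied between the lines without a call. *Peg13* had 1 and 0 counts in the control and 8 and 2 counts in the *Zmym2*-/- mESCs, and 0 and 0 against 15 and 2 counts in EBs, and no fold is given.

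Separation of the lines was common among all genes. Both *Zmym2*-/- mESC lines lay above both controls for 21 members and below them for 10 of 40, where 30.8% and 29.2% of all genes did (60% in all). In EBs 13 lay above and 10 below, where 26.2% and 24.4% of all genes did (50.6% in all).

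EBs were compared with mESCs of the same genotype to place the genotype differences beside the change that differentiation brings. In control lines 17 of 40 members were higher and 10 were lower in EBs (67.5%, against 46.6% of all genes), where 23% of all genes were higher and 23.6% lower, so that the share of lower members was near that of all genes. The members had a median log2 fold change of 0.38. *Magel2* had the largest change, with a log2 fold change of 6.13 (SE 0.21), and *Nnat* (2.97), *Ndn* (1.91), *Peg3* (1.77), *Snrpn* (1.68), *Inpp5f* (1.38) and *Usp29* (1.29) followed. Lower in EBs were *Slc22a18* (-3.02), *Ascl2* (-1.72), *Phlda2* (-1.69), *Sfmbt2* (-1.66), *Peg10* (-1.16) and *Grb10* (-0.98). Of the maternally expressed genes 6 rose and 7 fell, and of the paternally expressed genes 9 rose and 3 fell. In *Zmym2*-/- lines 13 members were higher and 11 were lower in EBs, where 45.2% of all genes were called. The genotype and stage comparisons share control samples, so their values are set side by side and not correlated.

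The difference between genotypes itself changed between mESCs and EBs for 5 of 40 members (12.5%, against 5.25% of all genes), 1 upward and 4 downward where 3.07% and 2.18% of all genes were,, as tested by the stage by genotype interaction. *Magel2* rose by 6.13 in control and 3.58 in *Zmym2*-/- lines on the log2 scale (difference -2.56, SE 0.28, adjusted p = 0.000381), and *Snrpn* by 1.68 and 0.83 (difference -0.85, SE 0.09, adjusted p = 0.000309). *Peg3* rose by 1.77 and 0.93 (difference -0.84, adjusted p = 0.0282) and *Ndn* by 1.91 and 1.18 (difference -0.73, adjusted p = 0.0373). All 4 are paternally expressed and were higher in *Zmym2*-/- mESCs, and in EBs *Magel2* alone was called, as lower, which it was not in the fit of all 8 libraries that gave the interaction (adjusted p = 0.195). *Grb10*, maternally expressed, fell by 0.98 and 0.63 (difference 0.35, adjusted p = 0.0404).

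Libraries of mESCs and EBs with the same number were read as the same line, which the labels do not state, and the line was also used as a replicate block. Over 35 members the ratio of line 1 to line 2 in mESCs correlated with that in EBs with r = 0.08 in control and 0.28 in *Zmym2*-/- lines, a description that shares the libraries with the fit. With this block 14 of 40 members were called (35.0%, against 12.3% of all genes in the same fit), including all 5 of these, with *Plagl1* (difference 0.90, adjusted p = 0.0297) and *Meg3* (-0.36, adjusted p = 0.00813) among those added. *Snrpn* and *Magel2* were called in all 12 alternatives. *Peg3* was lost without control line 2 as mESCs (adjusted p = 0.120) or EBs (0.127), and without *Zmym2*-/- line 1 as mESCs (0.0601) or line 2 as EBs (0.0779). *Ndn* was lost without control line 2 as mESCs (0.142) or EBs (0.0748), control line 1 as EBs (0.156), *Zmym2*-/- line 1 as mESCs (0.0802) or line 2 as EBs (0.135). *Grb10* was lost without 7 of the 8 libraries, with adjusted p from 0.0529 (without *Zmym2*-/- line 2 as mESCs) to 0.150 (without control line 1 as EBs).

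**Figure D4:**
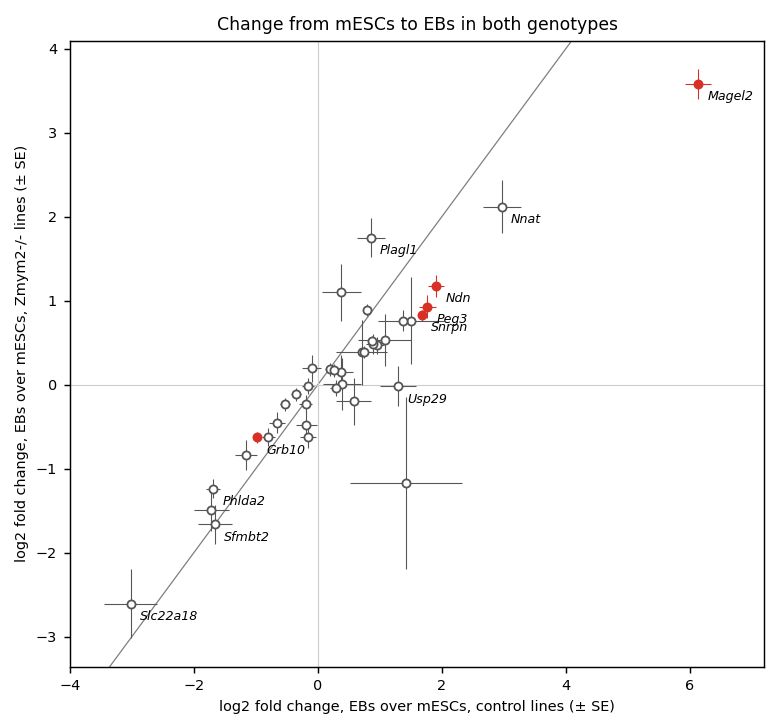
Log2 fold change from mESCs to EBs of 39 imprinted genes in control lines (horizontal axis) and in *Zmym2*-/- lines (vertical axis), with bars for the standard error and a grey line of equal change. The 5 filled red genes differ between genotypes in the interaction test: *Magel2*, *Ndn*, *Peg3* and *Snrpn* rise less in *Zmym2*-/- lines and *Grb10* falls less. *Peg13* is left out because of its 0 counts.

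Genes of the pluripotent state differed between the mESC lines as well. Of 6 pluripotency markers 4 were lower in *Zmym2*-/- mESCs and none was higher, with *Klf4* at 346 and 389 against 93.5 and 106 CPM and *Tfcp2l1* at 147 and 153 against 54.1 and 33.0 CPM, whereas *Pou5f1* was between 1578 and 1734 CPM in all 4. Their summed level was 3432 to 3640 CPM in control and 2719 to 2931 CPM in *Zmym2*-/- mESCs, and 1592 to 1672 CPM against 1546 to 1576 CPM in EBs. In control lines all 6 of these markers were lower in EBs than in mESCs. The part of this shift in the imprinted genes that differed in mESCs was not tested.

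The spread between the 2 clones of a genotype was set beside the difference between genotypes for each member. For members above 1 CPM, the median size of the log2 ratio between clones was 0.16 in control mESCs, 0.19 in *Zmym2*-/- mESCs, 0.14 in control EBs and 0.20 in *Zmym2*-/- EBs (36 members each). All genes above 1 CPM had 0.12, 0.15, 0.0983 and 0.101. With genes of all levels the members had 0.166, 0.238, 0.154 and 0.226 and all genes 0.178, 0.220, 0.150 and 0.162, so that in control mESCs the order depended on the filter. Among the members above 1 CPM the largest ratios were those of *Magel2* in control mESCs (1.01) and *Slc22a18* in *Zmym2*-/- mESCs (0.67). In EBs they were those of *Nnat* in control (1.03) and *Igf2* in *Zmym2*-/- lines (0.92). Members of lower level had larger ones, up to 2.12 (*Peg13* in *Zmym2*-/- EBs).

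The genotype difference was larger than both clone ratios for 24 of 40 members in mESCs (60.0%, against 48.0% of all genes) and for 22 of 40 in EBs (55.0%, against 38.1%). All called members are among these, which the test largely fixes because it reads the same clone ratios. *Igf2*, *Mest* and *Kcnq1ot1* are examples of the 16 with a smaller difference in mESCs, and *Igf2*, *Peg3*, *Dlk1* and *Mest* of the 18 in EBs. In embryos the median SD of log2 CPM over the 41 members was 0.49 in *Zmym2*+/+ and 0.50 in *Zmym2*-/-, against 0.55 and 0.53 over all genes, and for genes above 1 CPM it was 0.49 and 0.50 against 0.38 and 0.33. *Ascl2* (2.61 and 2.09) and *Sfmbt2* (2.05 and 1.89) had the largest SDs in embryos, and both are highest in the embryos with the most trophoblast marker RNA.

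**Figure D5:**
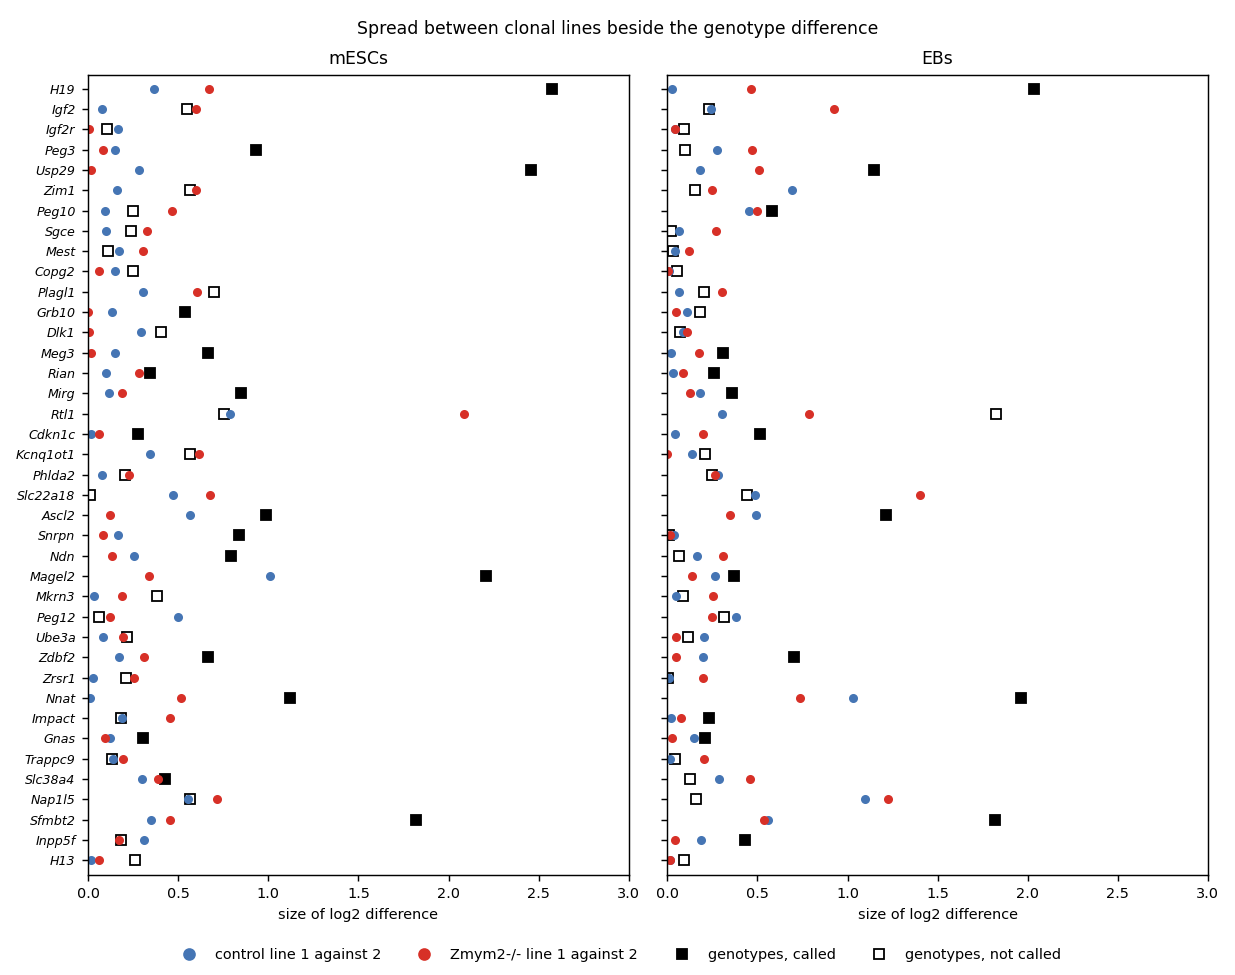
Size of the log2 difference between the 2 control lines (blue), between the 2 *Zmym2*-/- lines (red) and between genotypes (squares, filled where called) for 39 imprinted genes in mESCs (left) and EBs (right). Every filled square lies to the right of both circles of its gene, and the control lines differ by about 1 for *Magel2* in mESCs and *Nnat* in EBs.

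Proteins that place or keep imprints were read from a separate list of 16 genes. In *Zmym2*-/- mESCs 7 of 16 were higher and none was lower, where 10.3% of all genes were higher. *Dnmt3b*, a de novo DNA methyltransferase, had 240 and 170 CPM in control and 561 and 769 CPM in *Zmym2*-/- mESCs (log2 fold change 1.70), and its cofactor *Dnmt3l* had 289 and 176 CPM against 619 and 540 CPM (log2 fold change 1.32). *Dppa3*, which protects maternal methylation in the zygote, had 23.2 and 13.9 CPM against 78.3 and 55.8 CPM (log2 fold change 1.85), and *Atf7ip*, a partner of SETDB1, 82.9 and 75.6 CPM against 121 and 122 CPM (log2 fold change 0.61). *Zfp57*, whose protein reads the methylated imprint, was not called, with 344 and 223 CPM against 207 and 224 CPM (adjusted p = 0.0743).

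In EBs 3 of the 16 were higher, *Dppa3* (log2 fold change 2.42), *Atf7ip* (0.88) and *Dnmt3l* (0.57), and *Dnmt3a* was lower (-0.28), where 4.62% of all genes were higher and 2.77% lower. In embryos none of the 16 was called, and *Dppa3* had a log2 fold change of 2.44 (adjusted p = 0.0536). A second list held other genes with reported imprinting outside the 41. None of the 32 in the embryo table was called. In *Zmym2*-/- mESCs 6 of 28 were higher and 2 were lower, where 10.3% and 8.94% of all genes were, and in EBs 2 of 28 were higher, where 4.62% of all genes were. *Zfp264*, which lies in the *Peg3* domain, had 0.610 and 0.0549 CPM in control and 4.83 and 4.85 CPM in *Zmym2*-/- mESCs, and 0.0303 and 0 CPM against 0.314 and 0.346 CPM in EBs. *Gab1* (log2 fold change 0.84 in mESCs and 0.78 in EBs), an adaptor of receptor tyrosine kinases, was higher in both stages, as was *Zfp264*. *Tspan32* (3.37), a tetraspanin gene, was also higher in mESCs, and *Ampd3*, an AMP deaminase gene, was lower (-1.20).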

How the data were processed

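RNA-seq libraries of 12 single embryos and 8 cell line samples were analysed. Per the authors, Trimmomatic 0.34 removed adapters, STAR 2.7.8a mapped the reads on mm10, Picard 2.9.0 handled duplicates and HTSeq counted per gene. The deposited raw counts are whole numbers that are not normalized. The strand setting and annotation of the counting are not given in the sources used here. The deposited normalized counts, treated as a score, are the raw counts multiplied by 1 factor per library and rounded, and served as a check only. The RPKM values were made by the authors with StringTie 1.3.5.

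Counts were tested with edgeR 4.0.16 in R 4.3.3 (TMM scaling, two-sided quasi-likelihood test, genes with at least 10 summed counts, Benjamini-Hochberg adjustment over all genes, threshold 0.05). Standard errors are the log2 fold change divided by the root of F. Embryos, mESCs and EBs were fitted separately, and stage and stage by genotype over the 8 line libraries together. Scripts were tested on simulated data. Alternatives were DESeq2 1.42.0, other size factors, another filter, a replicate block, batches and each library left out. Depth was 32016880 to 64057608 counts, and precision is set mainly by the number of samples. Where nothing says that samples came from separate cultures, p-values measure the spread between these samples, which may be technical.

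Values were given for every member called in any comparison and for a representative of each domain, and for at most 4 genes of each further list by smallest p. The members and lists were chosen with earlier results of these data known. Line numbers were read as the same line in mESCs and EBs, where the deviations of line 1 from line 2 correlated across genes with r = 0.13 in control and 0.42 in *Zmym2*-/- lines. Promoter and miRNA sequences are those of RefSeq on GRCm38.p6, and 33 of 41 members matched a promoter window. Gene coordinates are those of GENCODE for GRCm38. Exons of 17 members are overlapped by exons of another gene on the other strand and those of 9 on the same strand, where reads may be shared.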

Additional observations from a re-analysis of the deposited data

Results flagged for a closer look

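Among 82 groups of 6 embryos (41 genes in each genotype), 4 had a sample farther from the rest than the Dixon critical value of 0.625 for the gap over the range, where chance gives about 1 in 20. *Zmym2*-/- embryo 4 was highest for *Ascl2* (gap over range 0.942, 32.7 CPM with the next at 2.63 CPM) and *Sfmbt2* (0.929, 239 CPM with the next at 24.4 CPM), and lowest for *Copg2* (0.651, 57.5 CPM with the next at 71.0 CPM). *Zmym2*+/+ embryo 4 was highest for *Zrsr1* (0.801, 13.8 CPM with the next at 9.60 CPM). The summed trophoblast markers of *Zmym2*-/- embryo 4 were 720 CPM, the highest of its genotype, and their part in these values was not tested.

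The change from mESCs to EBs differed between genotypes, by the interaction test, for *Magel2* (-2.56 on the log2 scale), *Snrpn* (-0.85), *Peg3* (-0.84), *Ndn* (-0.73) and *Grb10* (0.35).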

How the results depend on the processing

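In embryos no member was called in any of the 23 alternatives. Leaving out 1 library at a time gave 10 to 14 members higher and 3 to 6 lower in mESCs (3 without control line 2), and 6 to 12 higher and 3 to 6 lower in EBs (3 without control line 2). It gave 13 to 18 higher and 10 lower for control EBs against mESCs, 12 to 14 higher and 8 to 11 lower for *Zmym2*-/- EBs against mESCs, and 2 to 7 for the interaction, with 2 without control line 2 or *Zmym2*-/- line 2 as EBs and 3 without control line 2 or *Zmym2*-/- line 1 as mESCs or control line 1 as EBs. With all 8 line libraries in 1 fit, 6 members were higher and 2 lower in EBs and 14 higher and 5 lower in mESCs. In EBs this ended the calls of *Peg10* (adjusted p = 0.0974), *Rian* (0.104), *Mirg* (0.0766), *Magel2* (0.195), *Impact* (0.333), *Gnas* (0.0948) and *Inpp5f* (0.0586), and in mESCs it ended that of *Slc38a4* (0.0698) and added *Dlk1* (0.0321). The interaction was called for 9 members by DESeq2 and 14 with the line as a replicate block. No result changed direction past the threshold. The cause of these changes was not tested. Apart from the interaction with the line block, the share of all genes called is not given for these alternatives or for the replicate block below. Their counts therefore do not show whether members were called more often than all genes.

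With the replicate number as a block, 0 members were called in embryos, 11 higher and 5 lower in mESCs, and 9 higher and 7 lower in EBs. *Cdkn1c* was lost in mESCs (adjusted p = 0.0643) and *Grb10* gained in EBs (0.0137). Embryos with the same number correlated between -0.44 and 0.44, so the numbers do not pair them. With 2 lines per genotype, leaving out a library leaves a lone sample that is assumed to vary like the rest.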
